A study of Mus musculus with 7 samples.

Results

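The transcripts of Msx1, Msx2 and Msx3 were followed in neural crest lineage cells of the mouse pharyngeal apparatus by droplet single-cell RNA sequencing. The genes were taken by symbol and are 3 of the 32285 gene identifiers in the count tables, and each symbol matched 1 identifier. In GRCm38, the build of the reference annotation used here, all 3 lie on the minus strand and the longest transcript of each has 2 exons. Msx1 (ENSMUSG00000048450) spans chr5:37820485-37824583, Msx2 (ENSMUSG00000021469) spans chr13:53466884-53473074 and Msx3 (ENSMUSG00000025469) spans chr7:140046157-140049089.

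Cells were EGFP-positive and DAPI-negative after sorting, so all of them descend from cells in which Wnt1-Cre recombined the ROSA-EGFPf reporter, and the mice were kept on a mixed background of the Swiss-Webster strain. Control embryos were Wnt1-Cre/+;ROSA-EGFPf/+ and gave 1 library at E8.5 (the anterior part of the embryo with the head, kit version 2), 1 at E9.5 (the pharyngeal apparatus from the first arch down with the heart and neural tube, version 3.1) and 2 at E10.5 (arches 2 to 6 with the heart and neural tube, version 3.1). The remaining 3 libraries are titled Tbx1null, whereas their genotype field reads Wnt1-Cre/+;Tbx1+/-;ROSA-EGFPf/+, and the study's own list of libraries gives Tbx1-/-. They are called null here after their titles. These are 1 library at E9.5 (version 3) and 2 at E10.5 (version 3 for replicate 1, version 3.1 for replicate 2). Wnt1-Cre and the reporter are thus carried by control and null embryos alike. Each library is a pool of embryos and counts as 1 replicate. At E9.5 genotype and kit cannot be told apart, and the first arch was taken at E9.5 and not at E10.5.

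Msx genes encode homeodomain transcription factors that act mainly as repressors. In the embryo Msx1 and Msx2 are transcribed at sites of BMP signalling, among them the distal (ventral) arch mesenchyme, the roof plate and the crest that forms next to it, and both are widely used as a readout of that pathway. Msx3 is known from the dorsal neural tube and is not a gene of the arch mesenchyme. Mesenchymal cells here are cells with at least 2 UMIs (unique molecular identifiers, each standing for 1 captured transcript) of Twist1, Prrx1 and Prrx2 together. They were split by a UMI of Hoxa3, Hoxb3 or Hoxd3 (Hox 3 cells, from the caudal arches), of Hoxa2 without Hox 3 (Hoxa2 cells) or of neither (Hox-negative cells), and by a UMI of Hand2, a distal arch and outflow tract factor. These classes rest on the UMIs found, so a cell placed as negative can still hold the transcript. Neural cells had at least 1 Sox2 UMI, no Twist1 UMI and too few Prrx1 and Prrx2 UMIs for the mesenchymal rule. They were divided in order into Sox10 (glial crest), Lmx1a (roof plate), Pax3 or Pax7 (dorsal neural tube) and other cells. Cells with a Sox2 UMI and no Twist1 UMI that met the mesenchymal rule were counted as mesenchymal only. There were 261 of them in the E9.5 control and 300 in the E9.5 null. At E10.5 there were 270 and 77 in control replicates 1 and 2, and 557 and 530 in null replicates 1 and 2.

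The promoters of the 3 genes share a CCAAT box, a sequence bound by the general factor NF-Y, within 250 bases before the RefSeq start (GRCm38.p6). The 30 bases around each box are shown because they are the one element of those searched that all 3 genes hold, with CCAAT or its reverse complement ATTGG in capitals and each line read 5′ to 3′ on the minus strand of the genome, the coding strand of these genes.
Msx1, box 1, chr5:37824659-37824688: cacgagcacagcCCAATggttctctccgga
Msx1, box 2, chr5:37824622-37824651: cctcgcgctctgATTGGccgctgccacgct
Msx2, chr13:53472887-53472916: ctccagggagagCCAATcggtggcgagcgt
Msx3, chr7:140049133-140049162: gctgaaacaaccATTGGgtagcggcgcatg
The boxes begin 91 and 54 bases before the start in Msx1, 124 before it in Msx2 and 62 before it in Msx3, and the Msx2 box falls inside the longer Msx2 model of the GENCODE annotation. CCAAT on either strand stands in 33.8% of the 32851 RefSeq windows of 250 bases. Of the other letters searched on both strands, the Smad core GTCTG had 1 match in Msx3 (42.2% of all windows), and the homeodomain core TAATTG (7.17%) and the GC-rich Smad core GGCGCC (9.59%) had 0 matches in the 3 windows. These are matches of letters in short windows and say nothing of the binding of a factor.

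The libraries hold between 140264662 and 234844769 UMIs in 5987 to 12047 barcodes, of which 5587 to 9555 cells were kept, and no pair of libraries shared more than 27 barcodes. Mesenchymal cells numbered 2190 to 7094 per library and neural cells 1284 to 3670. At E10.5 neural cells made up 37.0% and 14.1% of the kept cells in control replicates 1 and 2, and 45.7% and 46.2% in null replicates 1 and 2. Summed over 6 mesenchymal markers (Pdgfra, Snai1, Dlx2, Col3a1, Twist2, Col1a2), the mesenchymal class held 171 to 603 CPM, a unit that gives the UMIs of a gene per 1000000 UMIs of all genes in that class of a library. Summed over 6 neural markers (Sox1, Sox3, Pax6, Hes5, Nes, Fabp7), it held 75.1 to 219 CPM in the control libraries, 124 in the null library at E9.5, and 318 and 537 in the null replicates 1 and 2 at E10.5, against 264 to 1898 CPM in the neural cells of the same libraries. A Sox2 UMI was present in 4.58% to 25.5% of mesenchymal cells in control libraries, in 16.5% in the null library at E9.5, and in 31.5% and 52.3% in the null replicates at E10.5. Without these cells the neural marker sum was 52.9 to 75.9 CPM in 6 libraries and 128 in null replicate 2 at E10.5. That library also stood apart for 3 neuronal markers (Tubb3, Elavl3, Stmn2), with 714 CPM against 10.4 to 76.0 CPM in the other 6, and its replicate held 72.0 CPM. The mesenchymal comparisons, apart from shares of cells and correlations, are therefore also given for cells without a Sox2 UMI. This choice was made after these levels were seen. Tbx1, which is barely transcribed in crest, had 81 to 902 UMIs per library (0.539 to 5.74 CPM) with 155, 570 and 428 in the null libraries, and it checks no genotype, since a 3′ tag can lie outside a deleted part.

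The 3 genes divided the cells differently. Over the 6 libraries of E9.5 and E10.5, the Msx1 level was highest in Lmx1a neural cells at 603 ± 124 CPM (SD, n = 6, 452 to 763), followed by Pax3/7 neural cells at 232 ± 47.3 CPM and the Hox-negative Hand2-positive mesenchyme at 176 ± 91.7 CPM, and was lowest in Sox10 cells at 24.9 ± 25.6 CPM. The range of Lmx1a cells overlapped no other class, while every later pair of neighbours in the Msx1 order overlapped. The Msx2 level followed a like order from Lmx1a cells (114 ± 35.3 CPM) through the Hand2-positive mesenchyme (101 ± 55.9 Hox-negative, 93.3 ± 50.5 Hox 3 and 73.9 ± 59.3 Hoxa2) to Sox10 cells (6.08 ± 4.64 CPM), and every pair of neighbours overlapped. The Msx3 level was highest in Pax3/7 cells at 267 ± 23.9 CPM and in other neural cells at 208 ± 38.8 CPM, both above every value of the Lmx1a class next in order (57.0 ± 34.5 CPM). In the mesenchyme without Sox2 cells the Msx1 order split by Hand2, with means of 131 to 178 CPM in the 3 Hand2-positive classes and 49.9 to 55.8 CPM in the 3 Hand2-negative ones, and the mean Msx3 level of the 6 classes was 1.27 to 4.22 CPM.

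**Figure D1:**
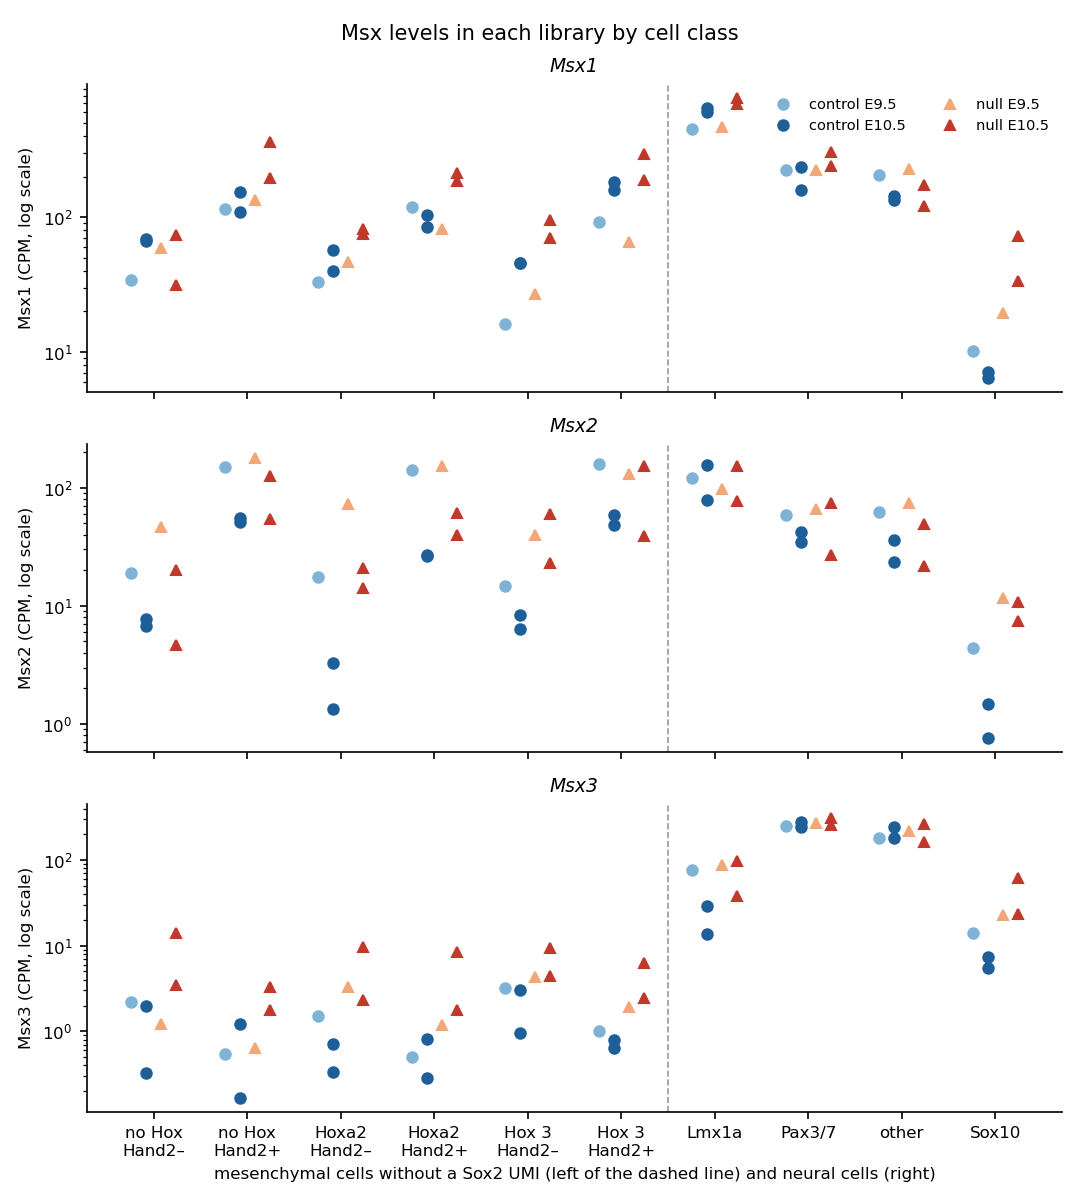
Level of Msx1, Msx2 and Msx3 (CPM, log axis) in 6 mesenchymal classes without Sox2 cells, left of the dashed line, and in 4 neural groups, right of it. Each symbol is 1 library, with circles for control and triangles for null and the darker shade for E10.5. Msx1 peaks in Lmx1a neural cells (452 to 763), Msx2 is high in Lmx1a cells and Hand2-positive mesenchyme, and Msx3 is highest in Pax3/7 and other neural cells.

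Among neural cells, Msx1 and Msx2 were higher and Msx3 was lower in the Lmx1a group than in Pax3/7 cells. Msx1 in Lmx1a cells was 452 CPM in the E9.5 control, 607 and 646 in the 2 E10.5 controls, 465 in the E9.5 null, and 689 and 763 in the 2 E10.5 nulls, against 224, 237, 159, 225, 307 and 238 CPM in Pax3/7 cells of the same libraries. Each library thus held 2.02 to 4.07 times more Msx1 in the Lmx1a group, a log2 difference of 1.36 ± 0.31 (SE, adjusted p = 0.0016, edgeR's quasi-likelihood test with Benjamini-Hochberg adjustment and the library as a block). Msx2 was higher by 1.20 ± 0.24 on the log2 scale (adjusted p = 0.00062, edgeR) and was higher in 6 of 6 libraries, whereas Msx3 fell by 2.23 ± 0.36 (adjusted p = 8.1e-05, edgeR) to 0.0564 to 0.325 of the Pax3/7 level. In this contrast 35.8% of 12026 genes were called, and Lmx1a itself defines the group. The roof plate group rests on 61 to 163 cells per library. Of the BMP genes, all 4 ligands tested were called higher there (Gdf7 by 5.51, Bmp7 by 4.31, Bmp6 by 3.68 and Bmp4 by 3.60, log2), 5 of 9 targets were called higher and 1 lower, and the median target differed by 0.46.

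Sox10 cells, the glial crest, had the lowest mean of the 4 neural groups in all 3 genes at E9.5 and E10.5. Their Msx3 mean of 22.3 CPM still lay above those of the 6 mesenchymal classes without Sox2 cells (1.27 to 4.22 CPM). Against other neural cells the log2 level of Msx1 fell by 2.84 ± 0.35 (adjusted p = 7.8e-07), that of Msx2 by 2.68 ± 0.29 (adjusted p = 1.2e-07) and that of Msx3 by 3.27 ± 0.36 (adjusted p = 1.4e-07, all edgeR), in a contrast that called 57.3% of 12026 genes. Msx1 in Sox10 cells was 6.43 to 10.2 CPM in the controls at E9.5 and E10.5, and 19.6, 33.4 and 73.0 CPM in the null libraries. Msx2 there was 0.766 to 4.38 CPM in the controls and 11.7, 10.7 and 7.42 CPM in the nulls. Msx3 was 5.51 to 14.2 CPM in the controls and 22.6, 23.3 and 61.0 CPM in the nulls. The null values thus lay above those of the controls for all 3 genes, but the share of all genes that separate in this way was not counted. Msx2 in control replicates 1 and 2 at E10.5 rests on 5 UMIs in each. These differences in Sox10 cells were not tested.

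At E9.5 and E10.5 Msx3 was higher in neural than in mesenchymal cells. Neural cells held 189 CPM of Msx3 in the control and 201 in the null at E9.5, followed by 245 and 127 in E10.5 controls and 213 and 179.9 in E10.5 nulls. In mesenchymal cells the Msx3 level was 12.1, 11.7, 18.1, 1.62, 33.0 and 60.4 CPM in the same order, and without Sox2 cells it was 1.94, 1.67, 1.27, 0.444, 2.97 and 8.24 CPM. The Sox2-positive cells of the mesenchymal class held 29.6 to 122 CPM of Msx3 in these 6 libraries, far above the rest of the class. Between mesenchymal and neural cells Msx3 fell by 3.58 ± 0.54 on the log2 scale (adjusted p = 0.0016, edgeR, 43.4% of 14985 genes called) and by 6.50 ± 0.48 without Sox2 cells (adjusted p = 4.6e-05, edgeR, 48.5% of 14776 called). Msx1 differed by -0.54 ± 0.21 (adjusted p = 0.073, edgeR), which passed the threshold without Sox2 cells at -0.95 ± 0.18 (adjusted p = 0.0039, edgeR), and Msx2 differed by 0.31 ± 0.14 (adjusted p = 0.11, edgeR) and by 0.17 without Sox2 cells (adjusted p = 0.46, edgeR).

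At E8.5 only 1 control library exists, so its values have no replicate and their 95% Poisson intervals cover counting error only. Among the mesenchymal Hox classes Msx1 was lowest in Hox-negative cells at 13.9 CPM (13.0 to 14.8). It was 46.1 CPM (41.0 to 51.7) in Hoxa2 cells and 81.4 CPM (70.0 to 94.1) in the 84 Hox 3 cells. Msx2 differed less between these cells, with 35.0 CPM (33.6 to 36.5), 48.8 (43.5 to 54.5) and 44.3 (36.0 to 53.9). The Msx3 level followed the order of Msx1, at 2.90, 25.5 and 79.2 CPM, and among Hox 3 cells without a Sox2 UMI it was still 68.7 CPM. Neural cells at E8.5 held 37.0 CPM of Msx1, 15.0 of Msx2 and 16.9 of Msx3. Only 1 mesenchymal cell at E8.5 had a Hand2 UMI. Kit, stage and dissection differ together between this library and the others.

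Hand2-positive mesenchyme carried more Msx1 and Msx2 than Hand2-negative mesenchyme, for Msx1 once Sox2 cells were left out. Without Sox2 cells, Msx1 in Hand2-negative and Hand2-positive cells was 29.5 and 114 CPM in the control at E9.5, 55.3 and 128 in control replicate 1 and 47.0 and 136 in control replicate 2 at E10.5. The corresponding null values were 51.3 and 126 CPM at E9.5, 86.8 and 268 in replicate 1, and 69.9 and 189 in replicate 2 at E10.5. Each library held 2.31 to 3.85 times more Msx1 in the Hand2-positive cells, and the ranges of the groups did not overlap. The log2 difference was 1.51 ± 0.09 (adjusted p = 3.5e-05, edgeR, 12.8% of 13614 genes called). With Sox2 cells included it was 0.52 ± 0.21 (adjusted p = 0.10, edgeR, 23.2% of 14278 called), and null replicate 2 at E10.5 then had less Msx1 in Hand2-positive cells (189.9 against 239 CPM). Neural markers moved with this split, at 95.5 to 668 CPM in Hand2-negative and 31.8 to 235 CPM in Hand2-positive cells, and at 61.5 to 133 and 26.0 to 120 CPM without Sox2 cells.

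Msx2 in Hand2-negative cells without Sox2 UMIs was 17.6 CPM in the E9.5 control, 5.61 and 3.78 in the 2 E10.5 controls, 48.5 in the E9.5 null, and 43.8 and 20.6 in the 2 E10.5 nulls. In Hand2-positive cells it was 149, 45.3, 42.9, 172, 114 and 40.9 CPM in that order. Msx2 was higher in Hand2-positive cells of all 6 libraries, by 8.08 to 11.3 times in the controls and by 1.98 to 3.55 times in the nulls. The log2 difference was 2.29 ± 0.32 (adjusted p = 0.0027, edgeR) and 1.52 ± 0.36 with Sox2 cells included (adjusted p = 0.019, edgeR), although without the null library at E9.5 the latter missed the threshold at 1.46 (adjusted p = 0.056, edgeR). Msx3 went the other way, falling by 3.08 ± 0.30 (adjusted p = 0.00038, edgeR) in Hand2-positive cells and by 1.03 ± 0.20 without Sox2 cells (adjusted p = 0.013, edgeR).

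**Figure D2:**
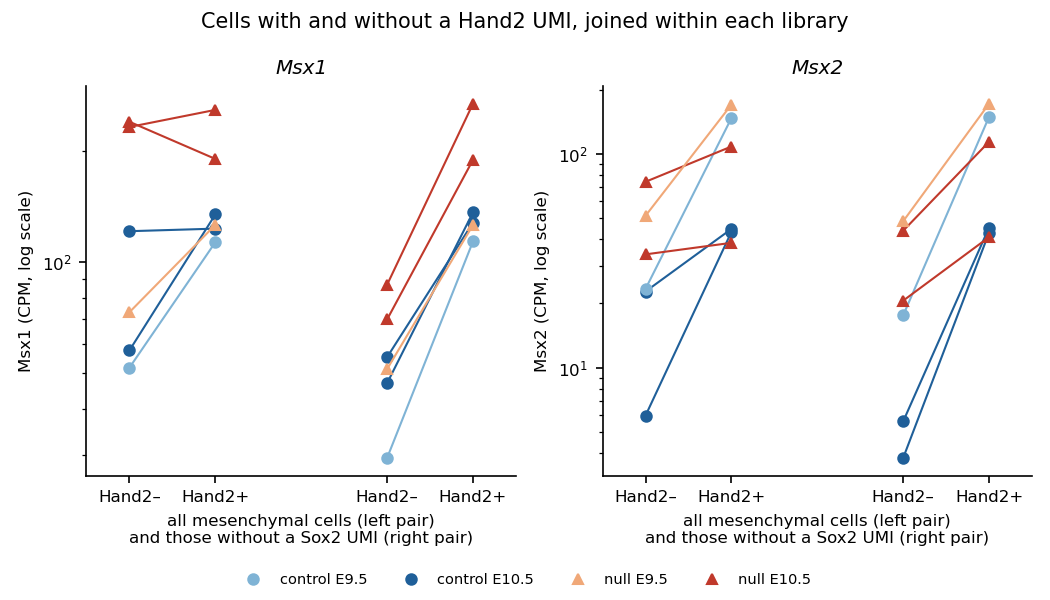
Msx1 and Msx2 (CPM, log axis) in mesenchymal cells without and with a Hand2 UMI, joined within each library, for all mesenchymal cells and for those without Sox2 UMIs. Without Sox2 cells all 6 lines rise for Msx1 and Msx2, and the Msx2 lines of the controls (8.08 to 11.3 times) are steeper than those of the nulls (1.98 to 3.55 times).

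Other genes of the BMP pathway also differed by Hand2, in a contrast that called 23.2% of all genes. Of 11 targets and feedback genes, 6 were called higher in Hand2-positive cells (Dkk1 by 3.70, Gata3 by 2.79, Bambi by 1.88, Smad6 by 1.17, Atoh8 by 0.69 and Smad7 by 0.60, log2), none was called lower, and their median was 0.68. Of 7 ligands, 4 were called higher (Gdf6, Bmp2, Bmp5 and Bmp4) and 3 lower (Bmp7, Gdf7 and Bmp6), and 3 of 9 antagonists were called lower, among them Nog by -2.29. Of 12 dorsal neural tube genes 11 were called lower, and 9 of 11 were without Sox2 cells, where 12.8% of all genes were called.

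No Msx1 or Msx2 difference between the Hox classes passed the test. Between Hox 3 and Hox-negative mesenchyme Msx1 differed by 0.16 (adjusted p = 0.63) and Msx2 by -0.17 (adjusted p = 0.78, both edgeR, 12.3% of 14199 genes called), and without Sox2 cells Msx1 was at -0.52 (adjusted p = 0.19, edgeR). Between Hoxa2 and Hox-negative cells Msx1 differed by -0.34 (adjusted p = 0.43) and Msx2 by -0.69 (adjusted p = 0.33, both edgeR, 0.401% called). Msx3 rose by 2.64 ± 0.48 in Hox 3 cells (adjusted p = 0.0031, edgeR), and the difference was 0.94 ± 0.28 without Sox2 cells (adjusted p = 0.057, edgeR). In the same contrast 9 of 12 dorsal neural tube genes were called higher (median 1.98), beside the 12.3% of all genes called. Fewer were called without Sox2 cells, where 11 were tested with a median of 0.93. The part of these genes in the Msx3 difference was not tested.

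Between E9.5 and E10.5 Msx2 fell in mesenchymal cells without Sox2 UMIs, and the Msx1 level was not shown to change. In those cells Msx2 was 49.4 CPM in the control and 87.3 in the null at E9.5, and 24.3, 20.6, 75.6 and 29.2 CPM in control replicates 1 and 2 and null replicates 1 and 2 at E10.5. Each genotype was lower at E10.5, while null replicate 1 at E10.5 lay above the control at E9.5, so the ranges of the stages overlapped. With Sox2 cells the values were 49.1, 84.3, 32.2, 22.0, 86.7 and 35.3 CPM in the same order, and null replicate 1 at E10.5 lay above both E9.5 libraries. The fit with genotype as a term gave Msx2 a log2 difference of -1.16 ± 0.36 (adjusted p = 0.054, edgeR, 21.0% of 17221 genes called), which passed without Sox2 cells at -1.42 ± 0.36 (adjusted p = 0.028, edgeR, 23.3% of 16852 called). With Sox2 cells it also passed where null replicate 1 or 2 at E10.5 was left out, at -1.58 and -0.96. Msx1 differed by 0.54 ± 0.22 (adjusted p = 0.11, edgeR), and by 0.26 without the null library at E9.5.

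By class, Msx2 fell from E9.5 to E10.5 in Hox-negative and Hoxa2 mesenchyme. It fell by 1.77 in Hand2-positive Hox-negative cells (adjusted p = 0.00091, 32.2% of genes called), by 1.13 in Hand2-negative Hox-negative cells (adjusted p = 0.031, 26.3% called), by 2.41 ± 0.28 in Hand2-positive Hoxa2 cells (adjusted p = 0.0025, 9.48% called) and by 2.33 ± 0.40 in Hand2-negative Hoxa2 cells (adjusted p = 0.0084, 13.6% called, all edgeR). Without Sox2 cells the Msx2 values of these 4 classes were -1.74, -1.98, -2.35 and -2.81, all called. The fall in Hand2-negative Hox-negative cells rested on few libraries, with a call in 2 of 6 fits that left out a library (-1.63 to -0.71), and null replicate 1 at E10.5 (59.1 CPM) lay above the null at E9.5 (47.6 CPM). In both Hoxa2 classes the Msx2 call was lost without the control at E9.5 (-2.07 with Hand2 and -1.75 without it, adjusted p = 0.16 for each, edgeR). In Hox 3 cells the Msx2 differences were -1.31 with Hand2 (adjusted p = 0.067, 9.25% called) and -0.12 without it (adjusted p = 0.88, 18.4% called, both edgeR). Msx1 rose by 0.98 ± 0.27 in Hand2-positive Hox 3 cells (adjusted p = 0.045, edgeR), a call kept in 2 of 6 fits that left out a library (0.53 to 1.47), and by 1.14 ± 0.21 in Hand2-negative Hox 3 cells without Sox2 UMIs (adjusted p = 0.0080, edgeR), where the estimate with Sox2 cells was 1.04 ± 0.32 (adjusted p = 0.058, edgeR). In neural cells the differences were -0.40 for Msx1 (adjusted p = 0.32), -0.98 for Msx2 (adjusted p = 0.12) and -0.37 for Msx3 (adjusted p = 0.37, all edgeR, 8.51% called). Hox-negative mesenchyme holds first arch cells at E9.5, a tissue left out of the later dissections, and in that class the tissue taken and the stage cannot be told apart. The class also depends on depth. It held 25.4% and 34.1% of mesenchymal cells in control replicates 1 and 2 at E10.5. With cells thinned to 5000 UMIs, its Hand2-negative part rose from 10.1% and 14.0% to 38.0% and 39.7% in these libraries. Its Hand2-positive part went from 15.3% and 20.1% to 19.8% and 22.6%. Cells whose Hox transcripts were missed can thus enter this class, and their part in the values by Hox class was not tested.

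The comparison of null with control embryos asked how crest cells, which hardly transcribe Tbx1 themselves, differ between the genotypes. Whether a difference arises in the crest cells or around them was not tested. Over all mesenchymal cells at E10.5, Msx1 was 122 and 90.7 CPM in the controls and 241 and 224 CPM in the nulls, a ratio of the means of 2.19, and the groups did not overlap. Msx2 was 32.2 and 22.0 CPM in the controls and 86.7 and 35.3 CPM in the nulls. Here too the groups did not overlap, but null replicate 2 lay close to control replicate 1. The share of all genes whose groups did not overlap was not counted, here or in the mesenchymal classes below. With 2 libraries per group no gene of the 3 was called, at log2 differences of 0.95 ± 0.24 for Msx1 (adjusted p = 0.21), 1.03 ± 0.47 for Msx2 (adjusted p = 0.36) and 2.06 ± 0.92 for Msx3 (adjusted p = 0.36, all edgeR, 0.138% of 15889 genes called). Without Sox2 cells the difference was 0.59 ± 0.28 for Msx1 (adjusted p = 0.47, 87.4 ± 2.85 against 144 ± 34.1 CPM) and 1.12 ± 0.48 for Msx2 (adjusted p = 0.44, both edgeR, 0.0459% called). For Msx3 it was 2.52 ± 0.64 (adjusted p = 0.33, edgeR), from 0.859 ± 0.587 to 5.60 ± 3.73 CPM, and the groups did not overlap. Neural and neuronal markers of the class moved with genotype, as given above, and their part in these differences was not tested. The mix of classes also differed. Hox 3 cells made up 36.8% and 24.9% of mesenchymal cells in the controls and 62.0% and 80.7% in the nulls. Hand2-positive cells made up 41.9% and 42.2% in the controls and 33.2% and 28.9% in the nulls. The part of this mix in the differences over all mesenchyme was not tested. Without null replicate 1 the Msx2 difference was 0.15.

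In neural cells no difference between null and control libraries was called. The log2 differences were 0.27 ± 0.32 for Msx1 (adjusted p = 0.92), 0.27 ± 0.47 for Msx2 (adjusted p = 0.95) and 0.0046 ± 0.33 for Msx3 (adjusted p = 1.0). In this class edgeR called 0 of 14986 genes (0%), with 774 at an unadjusted p under 0.05, and DESeq2 called 43. The errors leave room for differences of either sign.

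**Figure D3:**
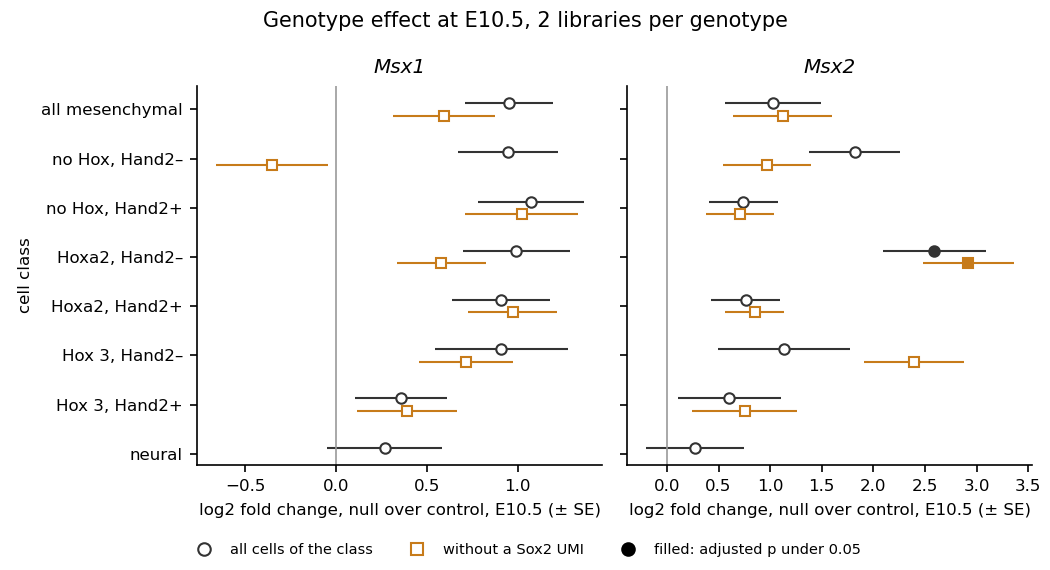
Log2 difference of null over control at E10.5 (point, with SE) for Msx1 and Msx2 in all mesenchymal cells, in 6 mesenchymal classes and in neural cells, from 2 libraries per genotype. Black circles are all cells of a class, orange squares are cells without a Sox2 UMI, and a filled symbol has an adjusted p under 0.05. Msx2 in Hand2-negative Hoxa2 cells is called on both sets, at 2.59 and 2.92.

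Among the mesenchymal classes, Msx2 was called in the Hoxa2 cells without Hand2. In these cells Msx2 was 7.01 and 2.20 CPM in the controls and 34.7 and 22.4 CPM in the nulls at E10.5, so that the lowest null value lay well above the highest control value. The difference was 2.59 ± 0.50 on the log2 scale (adjusted p = 0.041, edgeR, 1.67% of 12959 genes called), with means of 4.61 ± 3.40 and 28.6 ± 8.70 CPM (SD, n = 2 each). Without Sox2 cells it was 2.92 ± 0.44 (adjusted p = 0.024, edgeR, 0.875% of 12566 called), from 3.30 and 1.35 CPM in the controls to 21.1 and 14.3 CPM in the nulls, a 7.59-fold ratio of means. These values rest on 729 and 1771 control cells and on 382 and 105 null cells. The summed neural markers in them were 62.2 and 63.5 CPM in the controls and 50.8 and 101 CPM in the nulls, and the neuronal markers were 26.3 and 18.1 against 20.7 and 120 CPM. The part of these markers in the Msx2 difference was not tested. Leaving out either replicate of a genotype, with or without Sox2 cells, gave 1.94 to 3.60, and the call was kept in 8 of 8 such fits, which include a comparison of version 3.1 libraries alone. Where a fit left 1 library in a genotype, that library was assumed to vary like the others. With doublets kept the difference was 2.29 and did not pass (adjusted p = 0.063, edgeR). This Hoxa2 class also depends on depth. It held 24.1% and 27.4% of mesenchymal cells in the controls and 15.7% and 7.49% in the nulls. With thinned cells these shares were 18.1% and 17.1% in the controls and 17.0% and 11.9% in the nulls. Hox 3 cells without Hand2 held more Msx2, at 42.7 and 11.0 CPM in the controls and 91.1 and 36.1 CPM in the nulls. Cells whose Hox 3 transcripts were missed can enter the Hoxa2 class, and their part in the Msx2 difference was not tested.

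At E9.5, where each genotype has 1 library and no test was run, Msx2 in the same Hoxa2 cells was 26.9 CPM in the control and 75.3 CPM in the null. The ratio was 2.79 with a 95% counting interval of 2.51 to 3.12, in a class where 1.61% of 6978 genes with at least 10 CPM were 1.5-fold or more higher in the null and 4.27% differed by that much either way. Without Sox2 cells it was 17.5 against 72.9 CPM, a ratio of 4.16 (3.55 to 4.88). A fit of both stages with stage as a term gave Msx2 2.14 ± 0.40 (adjusted p = 0.11, edgeR, 0.0787% of 13986 genes called) and 2.56 ± 0.33 without Sox2 cells (adjusted p = 0.0096, edgeR, 0.267% of 13112 called). The null values of both stages (75.3, 34.7 and 22.4 CPM) lay above both controls of E10.5, and the last lay below the control of E9.5.

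**Figure D4:**
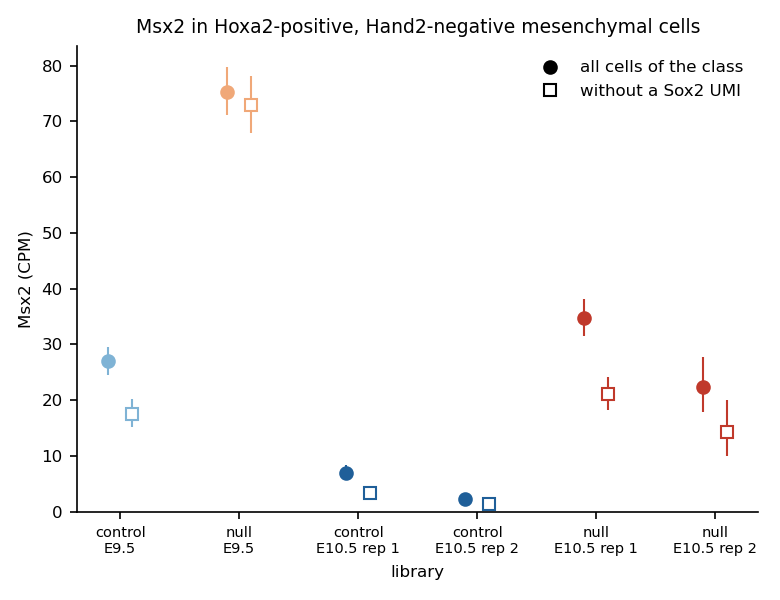
Msx2 (CPM) in Hoxa2 mesenchymal cells without Hand2 in each of the 6 libraries at E9.5 and E10.5, for all cells (filled circles) and for cells without a Sox2 UMI (open squares), with 95% Poisson intervals. At E10.5 the controls lie at 7.01 and 2.20 and the nulls at 34.7 and 22.4.

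Msx1 in these Hoxa2 cells was 74.6 and 42.1 CPM in the controls and 129 and 121 CPM in the nulls at E10.5, which do not overlap, at 0.99 ± 0.30 (adjusted p = 0.14, edgeR). In Hoxa2 cells with Hand2, Msx2 was 26.6 and 26.1 CPM in the controls and 61.2 and 32.8 in the nulls, at 0.76 (adjusted p = 0.61, edgeR, 0.00819% of genes called) and at 0.85 without Sox2 cells (adjusted p = 0.56, edgeR). Msx1 there was 82.7 and 103 CPM in the controls and 214 and 164 CPM in the nulls, at 0.91 (adjusted p = 0.60, edgeR) and at 0.97 without Sox2 cells (adjusted p = 0.56, edgeR). The groups did not overlap for either gene in these Hand2-positive cells, but neither difference was called. The share of all genes without overlap was not counted there. Leaving out a library, with or without Sox2 cells, gave 0.64 to 1.15 for Msx1, which passed in 3 of 8 such fits, and 0.14 to 1.16 for Msx2, which passed in 2 of 8. In each fit that passed 1 of the null replicates had been left out.

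In Hox-negative cells without Hand2, Msx2 was 13.4 and 8.54 CPM in the controls and 59.1 and 18.5 in the nulls, at 1.82 ± 0.44 (adjusted p = 0.071, edgeR, 2.04% of 11418 genes called), and at 0.97 without Sox2 cells (adjusted p = 0.33, edgeR). The Msx1 difference in that class was 0.95 (adjusted p = 0.11, edgeR) and turned to -0.35 without Sox2 cells (adjusted p = 0.63, edgeR). Msx3 was called there at 3.37 ± 0.67 (adjusted p = 0.038, edgeR) and not without Sox2 cells (2.76, adjusted p = 0.18, edgeR), where the class holds 133 and 37 null cells. Dorsal neural tube genes moved with the Msx differences of this class, with 6 of 10 called higher in the nulls (median 2.57). Fewer were called without Sox2 cells, where 7 were tested with a median of 2.55. The part of these genes was not tested. In Hox-negative cells with Hand2 the differences were 1.07 for Msx1 (adjusted p = 0.15) and 0.74 for Msx2 (adjusted p = 0.38, both edgeR, 0.697% called).

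Hox 3 cells had no called genotype difference in the 3 genes at E10.5. Msx2 in Hox 3 cells without Hand2 and without Sox2 UMIs was 8.42 and 6.32 CPM in the controls and 59.8 and 22.9 CPM in the nulls, which do not overlap, at 2.39 ± 0.48 (adjusted p = 0.34, edgeR). With Sox2 cells it was 1.13 ± 0.64 (adjusted p = 0.54, edgeR, 0.0142% of 14108 genes called), and Msx1 was at 0.91 (adjusted p = 0.45, edgeR). With Hand2 the differences were 0.36 for Msx1 (adjusted p = 0.60) and 0.60 for Msx2 (adjusted p = 0.66, both edgeR, 0.253% called), and 0.39 and 0.75 without Sox2 cells. Over both stages Msx3 was called in this last class at 2.92 ± 0.52 (adjusted p = 0.027, edgeR, 0.509% of 13564 genes called), from 0.874 to 4.71 CPM in the controls and 6.89 to 26.5 CPM in the nulls, and at 2.18 without Sox2 cells it was not (adjusted p = 0.24, edgeR). In the same fit 6 of 11 dorsal neural tube genes were called higher (median 3.099), and their part in the Msx3 difference was not tested.

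Over all mesenchyme at E9.5, Msx2 was 1.72 times higher in the null library (84.3 against 49.1 CPM, counting interval 1.67 to 1.77), one of the 0.947% of 6865 genes that were 1.5-fold or more higher there (3.03% either way). Msx1 was 1.36 times higher (1.32 to 1.40) and Msx3 was at 0.971 (0.908 to 1.04). Without Sox2 cells the ratios were 1.77 for Msx2, 1.501 for Msx1 and 0.858 for Msx3. The Msx3 ratio was 0.507 (0.445 to 0.578) in Hox-negative and 1.60 (1.45 to 1.77) in Hox 3 cells. Without Sox2 cells it was 0.574 (0.436 to 0.754) and 1.32 (0.951 to 1.84), and with thinned cells 0.864 (0.613 to 1.22) and 1.29 (0.732 to 2.31). The interval in Hox 3 cells included 1 under both settings, and the interval in Hox-negative cells included 1 with thinned cells. Msx1 was at 0.704 in Hand2-positive Hoxa2 cells and 0.692 in Hand2-positive Hox 3 cells, but with doublets kept these became 0.895 and 1.33 (1.17 to 1.51), the latter with the direction turned. The Msx2 ratio was 2.20 (2.10 to 2.31) in Hand2-negative and 1.16 (1.11 to 1.20) in Hand2-positive cells, and in Hox 3 cells with Hand2 it was below 1, at 0.770 (0.657 to 0.902). In neural cells the ratios were 1.03, 1.11 and 1.06 for Msx1, Msx2 and Msx3. A fit of all mesenchyme over both stages gave 0.78 ± 0.20 for Msx1 (adjusted p = 0.57) and 0.93 ± 0.35 for Msx2 (adjusted p = 0.57), which was 0.40 without null replicate 1 at E10.5. In it edgeR called 0 of 17221 genes (0%), with 1471 at an unadjusted p under 0.05.

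Whether the genotype difference in Msx2 depends on Hand2 was tested as an interaction over the 6 libraries. The log2 difference of null over control was smaller in Hand2-positive than in Hand2-negative cells by -1.23 ± 0.38, which did not pass (adjusted p = 0.48, edgeR), and was -0.73 without control replicate 2 at E10.5. In the fit of all 6 libraries edgeR called 0 of 15216 genes (0%) with 1334 at an unadjusted p under 0.05. Without Sox2 cells the value for Msx2 was -1.66 ± 0.16 (adjusted p = 0.0092, edgeR, 0.248% of 14517 genes called). Within Hox-negative cells without Sox2 UMIs, the Hand2-positive to Hand2-negative ratio of Msx2 at E10.5 was 6.60 and 8.17 in control and 6.24 in null replicate 1, and it was 11.7 in null replicate 2, above both controls, where the Hand2-negative level rests on 3 Msx2 UMIs in 37 cells (4.69 CPM, Poisson interval 0.966 to 13.7). With Sox2 cells these ratios were 3.67 and 6.41 in the controls and 2.16 and 2.85 in the nulls, and at E9.5 without Sox2 cells they were 7.96 and 3.77. At E10.5 without Sox2 cells the ratio was 8.21 and 19.4 in controls and 2.93 and 2.76 in nulls among Hoxa2 cells, and 7.01 and 7.72 against 2.56 and 1.69 among Hox 3 cells. The null ratios lay below those of the controls in Hoxa2 and Hox 3 cells, and a difference between the Hox classes in this respect was not tested. The interaction for Msx1 was -0.56 ± 0.28 (adjusted p = 0.60, edgeR) and -0.10 without Sox2 cells (adjusted p = 0.89, edgeR). The genotype difference of Hox 3 and Hox-negative cells differed by -0.13 for Msx1 (adjusted p = 0.98) and 0.12 for Msx2 (adjusted p = 0.99, both edgeR, 0.0339% of 14751 genes called).

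The BMP genes around Msx2 were followed in the Hoxa2 cells without Hand2, where Msx2 was called. Of 11 targets and feedback genes, 6 were called higher in the nulls and none lower, where 1.67% of all genes were called either way, with a median log2 difference of 1.39 against 0.033 over all genes tested. Gata3, a transcription factor gene, rose by 4.72 ± 0.40 (0.516 and 0.845 CPM in the controls, 14.9 and 26.9 in the nulls). Id1 and Id3, inhibitors of basic helix-loop-helix factors and direct BMP targets, rose by 1.83 ± 0.29 and 1.46 ± 0.27, with Id1 at 155 and 109 CPM in the controls and 587 and 421 CPM in the nulls. The other called targets were Bambi (1.73), Atoh8 (1.39) and Id2 (1.25), named after their values were seen. Without Sox2 cells 5 of the 11 were called (0.875% of all genes), Bambi being lost, and the median was 1.45 against 0.0034 over all genes.

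Ligands, receptors and antagonists were called in smaller numbers, again beside 1.67% of all genes. Of 5 ligands 1 was called, Bmp6 (2.99, from 1.08 and 0.302 to 5.79 and 5.33 CPM), and it was too low to be tested without Sox2 cells. Of 6 receptors 1 was called, Bmpr1b (-2.05, from 27.8 and 28.2 to 6.65 and 8.27 CPM), and of 7 antagonists 2 were called, both lower in the nulls, Bmper (-2.56) and Nbl1 (-2.04). Of the 3 Smad mediators tested edgeR called 0, with 0 at an unadjusted p under 0.05. Of the dorsal neural tube genes Rspo1 was called higher (2.07, from 15.7 and 6.22 to 46.2 and 52.8 CPM), and the median of the 12 tested was 2.41. Without Sox2 cells edgeR called 0 of the 8 tested, with 6 at an unadjusted p under 0.05 and a median of 2.37, and Rspo1 was then 9.03 and 4.82 CPM in the controls against 3.79 and 6.73 CPM in the nulls (-0.62). Over all mesenchyme edgeR called 0 of the 37 BMP genes, with 13 at an unadjusted p under 0.05 and a median of 0.035 against -0.025 over all genes. In neural cells it called 0 of 35 BMP genes (3 at an unadjusted p under 0.05) and 0 of 12 dorsal neural genes (1 at an unadjusted p under 0.05). Their choice followed earlier results of these data, so the counts are a description.

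Several BMP targets had an interaction with Hand2 of the same sign as Msx2. Without Sox2 cells the genotype difference was lower in Hand2-positive cells for 10 of 11 targets, and edgeR called 6 of them (Gata3 by -1.96, Id1 by -0.98, Id3 and Id2 by -0.78, Bambi by -0.68 and Smad7 by -0.54), where 0.248% of all genes were called, with a median of -0.78 over the 11 targets against 0.0098 over all genes. Hey1 was the exception, at 0.24. With Sox2 cells edgeR called 0 of the 37 BMP genes, with 15 at an unadjusted p under 0.05.

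To see whether Msx1 and Msx2 were found in the same cells, each cell was thinned to 5000 UMIs and cells with fewer were left out (22 to 416 per library). Of mesenchymal cells, 19.5% held Msx1 in the E9.5 control, 27.3% and 23.0% in the 2 E10.5 controls, 26.9% in the E9.5 null, and 44.7% and 41.7% in the 2 E10.5 nulls. The share with Msx2 was 16.8%, 12.2%, 9.15%, 27.6%, 30.1% and 15.4% in the same order. In Sox10 neural cells, taken as a class with little Msx, the shares were 2.77% to 24.1% for Msx1 and 0% to 5.03% for Msx2 (0 of 325 cells in control replicate 2 at E10.5, which allows up to 0.923% of cells with a UMI at this depth and sets no limit on expression). Before thinning the median depth was 19032 to 25610 UMIs in these Sox10 cells and 16386 to 24612 UMIs in mesenchymal cells. The mesenchymal Msx2 shares lay above those of Sox10 cells in every library. Without thinning the mesenchymal shares were 36.3% to 65.0% for Msx1 and 18.9% to 60.1% for Msx2. All mesenchymal shares include cells with a Sox2 UMI, whose part in them was not tested. At E10.5 these Sox2 cells held 322 and 217 CPM of Msx1 in the controls, against 89.4 and 85.4 CPM in the rest. In the nulls they held 417 and 317 CPM, against 168 and 120 CPM in the rest.

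Cells with both transcripts were 7.85% in the E9.5 control, 7.60% and 5.38% in the 2 E10.5 controls, 12.5% in the E9.5 null, and 20.3% and 10.3% in the 2 E10.5 nulls. Relative to the product of the single shares this was 2.27 to 2.56 times in the controls and 1.51 to 1.68 times in the nulls. The transcripts thus met in the same cells more often than independent shares would give, and the null values lay below those of the controls. Mesenchymal cells with a Sox2 UMI are included, and their part in this was not tested. The ratio was 2.86 to 3.97 in the controls and 1.59 to 1.96 in the nulls among Hand2-negative cells, 1.12 to 1.84 and 1.20 to 1.66 among Hand2-positive cells, and 0.897 to 1.07 in Lmx1a neural cells, of which 84.7% to 93.7% held Msx1. A higher share leaves less room for an excess, and mixtures of classes raise the ratio.

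**Figure D5:**
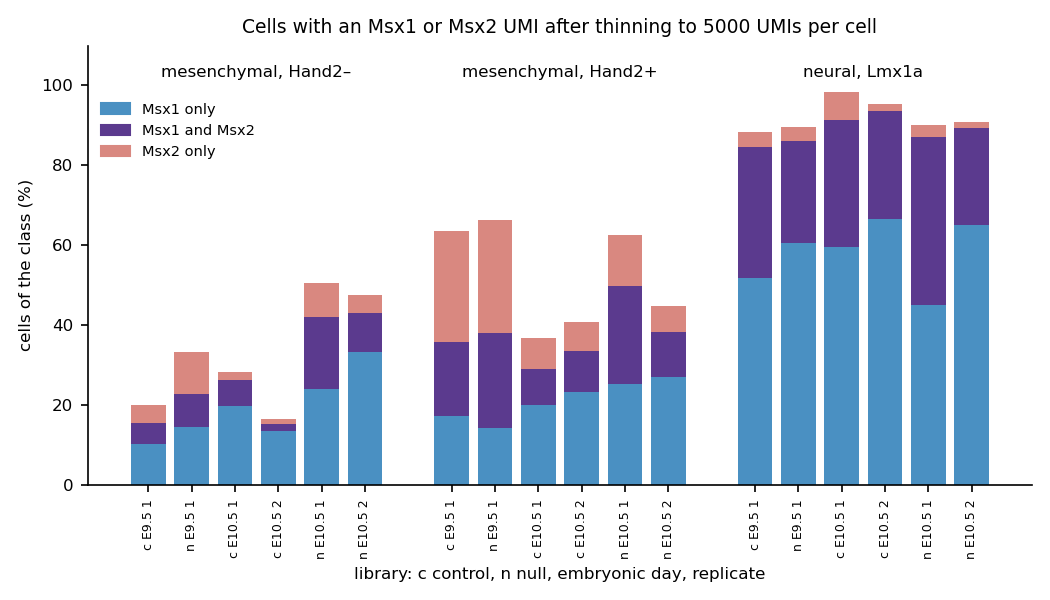
Percent of cells with Msx1 alone, with Msx1 and Msx2, and with Msx2 alone after thinning to 5000 UMIs per cell, as stacked bars for the 6 libraries of E9.5 and E10.5 in Hand2-negative mesenchyme, Hand2-positive mesenchyme and Lmx1a neural cells. Msx1 was found in 84.7% to 93.7% of Lmx1a cells, and 81.8% to 94.4% of their Msx2-positive cells also hold Msx1. The mesenchymal bars include cells with a Sox2 UMI.

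The genes most alike to each member were found by the correlation of log2(CPM + 1) over 60 sums of library and class, among 7805 genes. For Msx1 these were Agtrap (r = 0.867), Lpl (0.826), Fgfr2 (0.810), Plp2 (0.810) and Rbpms2 (0.801). Those for Msx2 were Id1 (0.928), Id3 (0.774), Msx1 (0.747), Taf10 (0.700) and Wfikkn1 (0.669). The Msx3 pattern was closest to that of Olig3 (0.969), Sox1 (0.966), Hes5 (0.960), Pax6 (0.956) and Mfng (0.956), genes of the neural tube or neural progenitors apart from Mfng. Msx3 correlated with Msx1 at 0.334 and with Msx2 at 0.100. The sums share libraries and depths, so these values are a description.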

How the data were processed

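Barcodes were read from raw UMI count matrices that the authors deposited without normalization, made with Cell Ranger 6.0.1 on mm10 per the labels and for 3′ libraries of 7 samples. The filter kept cells in which 1000 genes or more were detected and mitochondrial UMIs made up 10% or less, and the top Scrublet scores (scanpy 1.11.5), 0.8% per 1000 barcodes, were removed as doublets. Sums of counts over the cells of a class in a library are given as CPM. The library is the replicate, and p-values measure the spread between these libraries only. Tests used edgeR 4.0.16 in R 4.3.3 (TMM, filterByExpr, glmQLFit, glmQLFTest) over all genes, with Benjamini-Hochberg adjusted p under 0.05 as a call. Comparisons of classes and interactions had the library as a block. DESeq2 1.42.0 was an alternative. Simulated data were run through the genotype fits of all mesenchyme (E10.5 and both stages) and of neural cells (E10.5). The Hand2 contrast, its interaction with genotype and the Lmx1a contrast were also simulated. Other contrasts and the fits within single mesenchymal classes were not. Poisson, counting and exact (Clopper-Pearson) intervals were set at 95%, and shares of cells came from cells thinned to 5000 UMIs. Intervals and limits cover counting error only, and free RNA in droplets was not removed.

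Members and lists were chosen with earlier results of these data known. The lists were BMP ligands, receptors, mediators, antagonists and targets (37 genes) and 12 dorsal neural tube genes. Genes named in the text are the 3 members, the 5 genes most alike to each by correlation (mean of at least 10 CPM, sums of at least 50 cells), list genes called between genotypes at E10.5 (at most the 4 largest rises and 4 largest falls per class) and Tbx1. List genes named for the Hand2 and Lmx1a comparisons and the interaction were chosen after their values were seen. Values without Sox2 cells and without cells meeting both class rules were added after seeing the data. Some results of the dorsal neural list are not reported here. Replicates of one group differed by more than counting noise, and same-numbered E10.5 libraries deviated together at r = 0.0675 over 2 pairs, so they were not taken as paired. The annotation used for positions is GENCODE of GRCm38. Reads of an antisense RNA that overlaps Msx1 were not looked for.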

Additional observations from a re-analysis of the deposited data

Results flagged for a closer look

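The genotype difference of Msx2 differed between Hand2-positive and Hand2-negative mesenchymal cells when cells with a Sox2 UMI were left out, by -1.657 ± 0.16 on the log2 scale (adjusted p = 0.0092, edgeR's quasi-likelihood interaction test over 6 libraries). Msx2 in Hand2-negative cells was 17.6, 5.61 and 3.78 CPM in the controls and 48.5, 43.8 and 20.6 CPM in the nulls, and in Hand2-positive cells it was 149, 45.3 and 42.9 CPM against 172, 114 and 40.9 CPM. With Sox2 cells the value was -1.23 and did not pass (adjusted p = 0.48, edgeR). At E10.5 without Sox2 cells the Hand2-positive to Hand2-negative ratio was lower in the nulls than in the controls in Hoxa2 and Hox 3 cells. With Sox2 cells this held in Hoxa2 cells, while the Hox 3 ratios overlapped, at 1.37 and 4.53 in the controls and 1.53 and 1.05 in the nulls. In Hox-negative cells it was 6.60 and 8.17 in the controls and 6.24 and 11.7 in the nulls, the last, above both controls, with 3 Msx2 UMIs in its Hand2-negative cells, and with Sox2 cells it was 3.67 and 6.41 against 2.16 and 2.85. Leaving out each library in turn, with Sox2 cells, gave -1.68 to -0.73. The part of the Hox classes in the interaction was not tested.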

How the results depend on the processing

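For the genes over all mesenchyme and against neural cells, between its Hand2 and Hox 3 classes and between neural classes, with Msx2 in Hoxa2 cells without Hand2 and the numbers of genes called, the other settings and the fits that left out a library gave 364 values that kept their direction and side of the threshold, 31 that passed where the main value had not, 3 that no longer passed, 8 that reversed and 22 counts that moved. Values within the other single classes and the genotype values of neural cells are outside these counts. The call of Msx2 in Hoxa2 cells without Hand2 held under each alternative except doublets kept (2.29, adjusted p = 0.063, edgeR). Without a filter on low counts, the genotype differences over all mesenchyme passed for Msx1 (0.93, adjusted p = 0.021), Msx2 (1.01, adjusted p = 0.0040) and Msx3 (2.02), and with DESeq2 that of Msx1 did (0.97, adjusted p = 0.0058). The Hand2 difference of Msx1 passed with cells thinned to 5000 UMIs (1.00), a mesenchymal rule of 4 UMIs (0.98), cells meeting both rules left out (0.84) and without Sox2 cells (1.51). The mesenchymal to neural difference of Msx1 passed under the same 4 (-1.02, -0.74, -0.71 and -0.95). The stage difference of Msx2 passed with DESeq2 size factors (-1.20, adjusted p = 0.049, edgeR), no filter (-1.19), doublets kept (-1.20), thinning (-1.11), 4 UMIs (-1.25), cells meeting both rules left out (-1.27) and without Sox2 cells (-1.42). Thinning also brought past the threshold the interactions of Msx2 with Hand2 (-0.92, adjusted p = 6.0e-06) and with Hox 3 (0.72, adjusted p = 0.0065, both edgeR). The Hand2 interaction of Msx2 also passed without Sox2 cells and without thinning (-1.66). The interaction of Msx1 with Hox 3 turned to 0.20 under thinning and 0.11 under 4 UMIs. Msx1 between Hox 3 and Hox-negative cells turned to -0.14 (4 UMIs), -0.052 (both rules) and -0.52 (without Sox2 cells), its genotype difference in Hox-negative Hand2-negative cells turned to -0.35 without Sox2 cells, and the Hox 3 difference of Msx3 was lost there (0.94, adjusted p = 0.057, edgeR). The genotype value of Msx3 in neural cells, near 0, turned to -0.016 (DESeq2 size factors), -0.0031 (no filter), -0.042 (a filter of 200 genes and 5% mitochondrial UMIs) and -0.015 (DESeq2). Genes called between genotypes over all mesenchyme numbered 1438 without a filter, 11 with doublets kept, 7 without Sox2 cells and 738 with DESeq2, and in Hoxa2 cells without Hand2 they numbered 1039 without a filter, 57 with thinning, 110 without Sox2 cells and 502 with DESeq2. The causes were not tested.

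With the replicate number as a block, a pairing the data do not bear out, 146 genes were called over all mesenchyme and 1057 in Hoxa2 cells without Hand2. The blocked differences were 0.96 for Msx1 (adjusted p = 0.11) and 0.87 for Msx2 (adjusted p = 0.17) over all mesenchyme, and 1.04 for Msx1 (adjusted p = 0.0036) and 2.66 for Msx2 (adjusted p = 2.1e-07, all edgeR) in those Hoxa2 cells.

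Each library was left out in turn. For the mesenchymal genotype differences at E10.5, the ranges pool fits with and without Sox2 cells, so they do not show the dependence on libraries alone. The ranges of the other comparisons are from fits with Sox2 cells. Genotype differences of Msx1 were 0.24 to 1.14 over all mesenchyme and -1.23 to 1.22 in Hox-negative cells without Hand2. They were -0.028 to 0.71 in Hox 3 cells with Hand2 and -0.16 to 0.81 in neural cells. For Msx2 the ranges were 0.15 to 1.71, -0.73 to 2.30, -0.69 to 1.44 and -0.62 to 0.87, with -0.10 to 1.23 in Hox-negative cells with Hand2 and 1.94 to 3.60 in Hoxa2 cells without it. Without a change of sign, Msx2 ran from 0.25 to 2.97 in Hox 3 cells without Hand2 and from 0.14 to 1.16 in Hoxa2 cells with Hand2, and Msx1 from 0.40 to 1.60 in Hox 3 and 0.35 to 1.45 in Hoxa2 cells without Hand2 and from 0.45 to 1.40 in Hox-negative cells with it. For Msx3 the ranges were 1.17 to 4.60 over all mesenchyme and -0.45 to 0.59 in neural cells. The Hand2 difference was 0.37 to 0.69 for Msx1, passing without null replicate 2 at E10.5, and 1.25 to 1.76 for Msx2. The mesenchymal to neural difference was -0.68 to -0.39 for Msx1 and 0.21 to 0.42 for Msx2, the stage difference of Msx2 -1.58 to -0.96 over all mesenchyme and -0.64 to 0.16 in Hox 3 cells without Hand2, the Hand2 interaction of Msx2 -1.68 to -0.73, the stage difference of Msx1 over all mesenchyme 0.26 to 0.85, its genotype difference over both stages 0.61 to 0.97 and that of Msx2 0.40 to 1.23, and the Hox 3 interaction -0.41 to 0.14 for Msx1 and -0.15 to 0.33 for Msx2. Called genes numbered 0 to 851 over all mesenchyme and 151 to 1849 in Hoxa2 cells without Hand2. Msx2 in the latter cells at E10.5 rests on 497 and 164 null cells.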
